A study of Mus musculus with 15 samples.

Results

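Cholesterol synthesis, uptake and sterol control was followed in 4T1 cells, an established mouse mammary carcinoma line, through 33 genes of the 27179 in the count tables. The genes were taken from a list of symbols and matched to the identifiers of the count files, and all 33 were found and passed the filter on low counts. They comprise 8 enzymes of the mevalonate steps, 3 enzymes from squalene to lanosterol, 9 enzymes from lanosterol to cholesterol, 4 genes of sterol sensing, 4 of uptake and intracellular transport, and 5 of LXR signalling, efflux and esterification.

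RNA sequencing covered 5 populations with 3 biological replicates each, labelled WT throughout. The parental population was the untransfected line. Each of the clones named E1, E2, A and M came from 1 isolated parental cell after transfection with the plasmid pNLS-iRFP670 and was grown up as 1 clone. The clones were maintained in G418, which was withdrawn before RNA was collected. All populations grew in RPMI-1640 with serum, and RNA was taken after 72 h at about 80% confluency. Since all 4 clones went through transfection, cloning and G418, those steps and any feature common to the clones cannot be told apart.

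A cell's cholesterol comes from synthesis and from lipoproteins taken up by receptors. When sterols in the endoplasmic reticulum are low, SCAP carries SREBP2, the product of Srebf2, to the Golgi, where it is cleaved, and the freed factor switches on the genes of synthesis and uptake. INSIG proteins hold SCAP back when sterols are high. LXR receptors, bound by oxysterols, act the other way and switch on genes of cholesterol export and of receptor breakdown.

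The 15 libraries held 20143111 to 36831801 counts, and the 6 most abundant genes took 61.4% to 72.1% of them, with the highest share in parental replicate 1. Values are given as CPM (counts scaled to the TMM-adjusted library total by edgeR), and log2 fold changes are given ± SE over the libraries. The epithelial markers Epcam, Krt8, Krt18 and Cdh1 summed to 227 to 534 CPM in the libraries, the 7 leukocyte markers to at most 0.631 CPM and the 5 endothelial markers to at most 0.425 CPM. Among the epithelial markers, Epcam and Krt8 were called higher in every clone and Krt18 in A, whereas Cdh1 was called lower in A (-1.60 ± 0.20, adjusted p = 9e-07) and M (-0.91 ± 0.24, adjusted p = 0.00225), and their part in the values of the members was not tested. In bulk RNA, fewer cells with a transcript and less of it per cell cannot be told apart. The labels call the libraries biological replicates without saying how the cultures were separated, so p-values measure the spread between these libraries, which may be technical. Exons of 11 members overlap exons of another gene, and the strand setting of the counting is not given in the sources used here. Reads of such pairs cannot be told apart.

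Upstream sequence is shown for members that were called against parental in at least 2 clones, 18 in all, to set the letters of these promoters beside the calls. The RefSeq promoter table (GRCm38.p6) had an entry for 27 of the 33 members, 36 start sites in all. Of the 18 members called in at least 2 clones, 15 had an entry, and only these were ranked by p for any difference among populations. Of the 8 with the smallest p, the 6 with a single start site are printed. Among these, 5 were called higher in E1 and E2, and Abca1 was called lower in E1 and M. The printed sequences are the 250 bases before the start, on the gene's strand, 5′ to 3′. Capitals mark CCAAT, the letters bound by NF-Y, or its reverse complement ATTGG. Cyp51 lies at chr5:4104698-4104947 (minus strand), Idi1 at chr13:8885356-8885605 (plus), Lss at chr10:76531355-76531604 (plus), Hsd17b7 at chr1:169969206-169969455 (minus), Srebf2 at chr15:82147019-82147268 (plus) and Abca1 at chr4:53159896-53160145 (minus).
Cyp51 promoter: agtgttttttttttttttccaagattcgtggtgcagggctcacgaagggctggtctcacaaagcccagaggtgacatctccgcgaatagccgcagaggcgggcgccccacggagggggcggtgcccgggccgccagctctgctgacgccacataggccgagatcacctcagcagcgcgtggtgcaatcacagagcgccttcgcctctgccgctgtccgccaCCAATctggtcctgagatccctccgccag
Idi1 promoter: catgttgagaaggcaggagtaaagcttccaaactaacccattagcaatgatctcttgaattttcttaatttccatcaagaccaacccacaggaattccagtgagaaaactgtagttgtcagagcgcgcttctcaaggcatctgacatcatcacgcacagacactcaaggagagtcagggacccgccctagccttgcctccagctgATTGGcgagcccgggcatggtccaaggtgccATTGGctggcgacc
Lss promoter: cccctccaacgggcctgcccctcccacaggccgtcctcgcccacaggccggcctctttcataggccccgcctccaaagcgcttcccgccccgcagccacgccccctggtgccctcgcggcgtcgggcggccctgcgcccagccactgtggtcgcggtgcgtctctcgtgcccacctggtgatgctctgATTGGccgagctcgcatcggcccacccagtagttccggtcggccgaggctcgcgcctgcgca
Hsd17b7 promoter: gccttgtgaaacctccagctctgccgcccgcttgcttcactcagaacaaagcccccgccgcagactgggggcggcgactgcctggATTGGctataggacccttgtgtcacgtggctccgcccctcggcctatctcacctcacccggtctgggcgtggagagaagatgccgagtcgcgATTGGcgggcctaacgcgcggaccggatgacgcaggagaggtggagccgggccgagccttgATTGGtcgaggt
Srebf2 promoter: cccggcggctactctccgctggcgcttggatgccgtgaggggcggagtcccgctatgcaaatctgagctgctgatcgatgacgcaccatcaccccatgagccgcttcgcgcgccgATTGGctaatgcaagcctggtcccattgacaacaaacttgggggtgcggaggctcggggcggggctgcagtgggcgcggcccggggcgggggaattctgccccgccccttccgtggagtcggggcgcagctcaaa
Abca1 promoter: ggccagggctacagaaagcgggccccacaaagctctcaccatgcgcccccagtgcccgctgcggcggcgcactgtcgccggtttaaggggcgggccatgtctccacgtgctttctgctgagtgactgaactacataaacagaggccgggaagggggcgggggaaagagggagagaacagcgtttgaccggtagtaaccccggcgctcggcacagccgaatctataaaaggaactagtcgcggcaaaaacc

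The 4 enzyme genes and Srebf2 each hold the CCAAT letters in this stretch, and Abca1 does not. Members not printed go against such a split. Lrp8, called higher in E1, E2 and M, held them at none of its start sites, nor did Acat2 and Nr1h2, also called higher. Vldlr, called lower in all 4 clones, held them at 1 start site. Hsd17b7 holds them 3 times and Idi1 has 2 copies. The 17 synthesis enzymes with an entry have 20 start sites, and 16 of these sites held CCAAT on either strand in the 250 bases before the start, 1 in each enzyme but Acat2. Of the 20 start sites of members called in at least 2 clones, 11 held it. Of all 32851 promoters in the table, 33.8% did. The letters GGGCGG, bound by Sp1, stood before 16 of the 20 start sites of enzymes and 14 of the 20 of members called in at least 2 clones, against 32.7% of all promoters. The sterol response element letters TCACNCCAC were found in 1 member, Hmgcs1, with TCACCCCAC on the gene's strand starting 137 bases before the start, where 1.05% of all promoters hold a match. None of the promoters printed above holds these letters. Both strands were searched, a match is a description of the letters, and which start sites these cells use was not measured.

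Of the 33 members, 25 differed among the 5 populations (edgeR, adjusted p under 0.05), where 40.9% of all 12712 tested genes did. The other 8 were Ggps1, Fdft1, Sc5d, Lbr, Scap, Insig2, Npc1 and Soat1, with an adjusted p between 0.0528 and 0.624. Levels between genes are compared per kb of exon only. In the parental cells Lbr (14.2 CPM per kb), Msmo1 (9.87) and Insig2 (9.28) were the most abundant members on that scale. Abca1 (0.0388), Abcg1 (0.130) and Tm7sf2 (0.192) were the least abundant.

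Against the parental population, E1 had 13 members higher and 3 lower, and E2 had 16 higher and 2 lower. Over all tested genes, 7.77% were higher and 7.35% lower in E1, and 9.14% higher and 8.8% lower in E2. The median log2 fold change of the members was 0.58 in E1 and 0.68 in E2, beside -0.01 and 0.01 over all genes. A had 5 members higher and 6 lower (15.1% and 14.9% of all genes), with a median of -0.06 beside 0.03. M had 7 higher and 3 lower (7.87% and 6.28% of all genes), with a median of 0.32 beside -0.01. Both counts in A, and the lower counts in E1, E2 and M, are near the shares called over all genes. The 4 comparisons use the same parental libraries. Abca1 and Abcg1 had no counts in some clones, and with their fold changes set at the bound that 3 counts allow, these medians were the same.

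**Figure D1:**
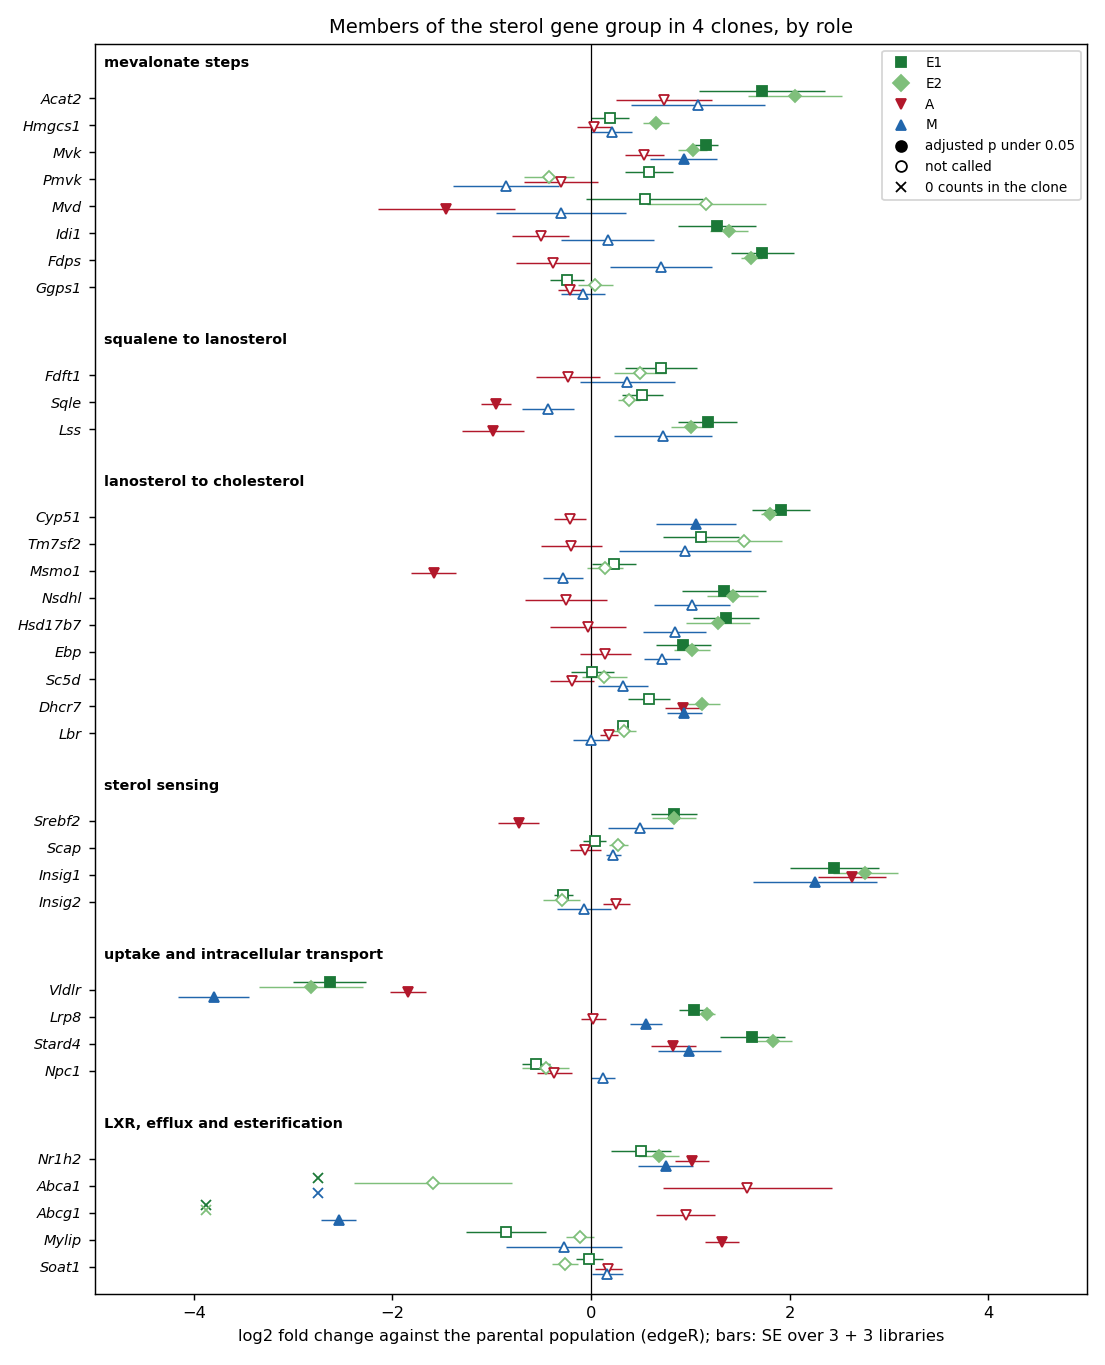
Log2 fold change of each member against the parental population (x axis) in the clones E1, E2, A and M, with genes grouped by role (y axis); points are edgeR estimates, bars the SE over the libraries, filled points passed an adjusted p of 0.05, and crosses mark clones with 0 counts, where the estimate is no measure of size. Most enzymes lie to the right in E1 and E2 and near or left of 0 in A, while Insig1 lies between 2.26 and 2.76 in all 4 clones and Vldlr between -3.80 and -1.85.

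Among the mevalonate enzymes, which build isoprene units from acetyl-CoA, E1 had 4 of 8 higher and E2 had 5 of 8. Over all genes, 7.77% and 9.14% were higher. Fdps, the synthase of farnesyl diphosphate, stood at 13.1, 16.5 and 15.1 CPM in the parental libraries, 31.5, 62.9 and 54.1 in clone E1, 43.0, 47.7 and 46.7 in clone E2, 6.78, 16.1 and 11.3 in clone A and 12.1, 40.6 and 20.1 in clone M. All libraries of E1 and E2 lay above the parental ones, and those of A and M overlapped them. The log2 fold change was 1.72 ± 0.32 in E1 (adjusted p = 0.0148) and 1.61 ± 0.11 in E2 (adjusted p = 0.0177). The call in E1 was lost without any 1 parental library or E1 replicate 2, and the call in E2 without any 1 parental library or E2 replicate 2, with adjusted p up to 0.0715 and 0.082. Of the 4208 exon bases of Fdps, 1124 are shared with the gene model Gm43738 on the same strand.

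Idi1, the isomerase that makes the reactive isoprene unit, was at 2.83, 4.36 and 3.81 CPM in parental, 5.27, 10.9 and 10.8 in clone E1, 8.95, 10.6 and 9.66 in clone E2, 2.36, 3.39 and 1.97 in clone A and 2.51, 6.72 and 3.04 in clone M. E1 and E2 were again clear of the parental libraries, by 1.27 ± 0.39 (adjusted p = 0.0103) and 1.39 ± 0.19 (adjusted p = 0.00434) on the log2 scale. Leaving out E1 replicate 2 or 3 or parental replicate 1 ended the E1 call of Idi1 (adjusted p up to 0.0582). In A, 2 of the 3 libraries lay below every parental one, and the difference did not pass the test. M replicate 2 stood above the other M libraries for both Fdps and Idi1. Reads of Idi1 can be shared with the gene model Gm13502, which matches it at 100.0% over 684 transcript bases.

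Mvk, mevalonate kinase, rose in E1 (1.16 ± 0.12), E2 (1.02 ± 0.15) and M (0.94 ± 0.34), with adjusted p of 0.00382, 0.00831 and 0.0176. Its CPM was 3.20 to 4.16 in parental and 4.27 to 8.78 in these clones, without overlap. The Mvk call in M was lost without parental replicate 1 or 2 or M replicate 2 or 3 (adjusted p up to 0.102), and that in E2 without E2 replicate 3 (0.0518). Acat2, the cytosolic thiolase that opens the pathway, rose in E1 (1.72 ± 0.63, adjusted p = 0.0271) and in E2 (2.05 ± 0.47, adjusted p = 0.00966). The Acat2 call in E1 was lost without parental replicate 1 or 2, or without E1 replicate 2 or 3, with adjusted p of at most 0.106, and that in E2 without parental replicate 1 (0.055). Its reads can be shared with Acat3, which matches it at 97.7% over 1477 transcript bases. Hmgcs1, the synthase of the step after it, rose in E2 alone among the 4 tests, by 0.65 ± 0.13 (adjusted p = 0.0108), and its difference between E2 and E1 was not called (adjusted p = 0.382). Without parental replicate 3 the Hmgcs1 call in E2 was lost (adjusted p = 0.0524).

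Mvd, the decarboxylase of the branch, was a low transcript that fell in A. Its CPM was 1.81, 3.44 and 0.787 in parental, 2.78, 2.97 and 3.09 in clone E1, 4.06, 4.33 and 5.29 in clone E2, 0.432, 1.08 and 0.553 in clone A and 1.28, 2.30 and 1.23 in clone M. A overlapped parental replicate 3, and every E2 library lay above every parental one. The fold change was -1.46 ± 0.69 in A (adjusted p = 0.0148), and the E2 value of 1.16 ± 0.60 missed the threshold (adjusted p = 0.0654). The A call was lost without parental replicate 2 (-0.84, adjusted p = 0.2), without A replicate 1 (adjusted p = 0.0758) or 3 (0.0633), and in a fit of parental and A alone. Of the 94 tested genes within 5 Mb of Mvd, 31 were called lower in A, with a median of -0.42, and the part of this in the Mvd value was not tested. Pmvk, phosphomevalonate kinase, differed among the populations but in no test against parental, and was lower in M than in E1 (-1.44 ± 0.52, adjusted p = 0.0471). Ggps1, which makes the geranylgeranyl donor, ranged from 13.6 to 22.4 CPM over all 15 libraries.

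From squalene to lanosterol, Lss rose in E1 and E2 and fell in A. This cyclase, which closes the sterol rings, was at 5.85, 5.47 and 7.999 CPM in parental, 10.2, 17.0 and 17.0 in clone E1, 11.1, 13.3 and 14.6 in clone E2, 2.62, 4.50 and 2.55 in clone A and 5.46, 16.8 and 9.71 in clone M. E1 and E2 lay above and A below all parental libraries, and M spanned from the parental level to that of E1. The log2 fold changes were 1.18 ± 0.30 (adjusted p = 0.013), 1.00 ± 0.20 (adjusted p = 0.0288) and -0.99 ± 0.31 (adjusted p = 0.0226). The order of mean levels was E1, E2, M, parental, A, and of its neighbours only parental and A differed. Leaving out replicate 2 or 3 of the clone, or parental replicate 1 or 2, ended the calls in E1 and E2, and leaving out A replicate 1 or 3 or parental replicate 3 ended the one in A, with adjusted p up to 0.0617, 0.109 and 0.114.

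Sqle, the epoxidase that commits squalene to sterols, fell in A and was not called in the other clones. Its CPM was 27.5, 32.7 and 28.2 in parental, 31.8, 48.8 and 45.9 in clone E1, 43.0, 37.0 and 35.6 in clone E2, 12.7, 17.2 and 15.6 in clone A and 15.6, 28.7 and 21.0 in clone M. All 3 A libraries lay below every parental library (-0.96 ± 0.15, adjusted p = 0.000492), and M overlapped both. Sqle lies on chromosome 15 (59315092 to 59331193, GRCm38), where the 37 tested genes within 5 Mb had a median log2 fold change of -1.58 in A and -1.41 in M, with 26 and 25 of them called lower. The fold change of Sqle itself was less negative than that median in both clones, -0.96 in A and -0.43 in M. The part of this chromosome stretch in the values of Sqle was not tested. Fdft1, the squalene synthase, differed in no test against parental (4.61 to 14.5 CPM over all libraries). It was called lower in A than in E1, with a log2 fold change of -0.93. Its reads can be shared with the gene model Gm6781, which matches it at 97.4% over 1249 transcript bases. Exons of Fdft1 share 774 bases with Ctsb on the other strand.

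Of the 9 enzymes from lanosterol to cholesterol, E1 had 4 higher and E2 had 5, where 7.77% and 9.14% of all genes were. Cyp51, the lanosterol demethylase, had the largest fold change of these enzymes in E1 and in E2. It stood at 12.1, 13.6 and 13.0 CPM in parental, 31.7, 57.8 and 57.6 in clone E1, 46.6, 48.8 and 40.7 in clone E2, 10.1, 13.6 and 9.75 in clone A and 15.9, 41.5 and 23.2 in clone M. Every library of E1, E2 and M lay above the parental ones, whereas A overlapped them. The log2 fold change was 1.92 ± 0.29 in E1 (adjusted p = 0.000159), 1.81 ± 0.09 in E2 (adjusted p = 0.000221) and 1.06 ± 0.40 in M (adjusted p = 0.0149). It was -0.21 ± 0.16 in A (adjusted p = 0.617). The M call was lost without M replicate 2 (0.60, adjusted p = 0.0772) and without parental replicate 1 (adjusted p = 0.0802) or 3 (0.0538).

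Msmo1, the oxidase that removes methyl groups of the sterol ring after Cyp51 has acted, showed another pattern. Its CPM was 56.8, 68.0 and 57.1 in parental, 53.1, 86.0 and 75.0 in clone E1, 56.6, 81.7 and 62.3 in clone E2, 16.4, 26.5 and 17.6 in clone A and 43.4, 63.4 and 42.8 in clone M. The A libraries were far below all others, and E1, E2 and M overlapped the parental range. The fold change in A was -1.59 ± 0.23 (adjusted p = 2.85e-06), and M exceeded A by 1.30 ± 0.28 (adjusted p = 8.76e-05). The order of levels was E1, E2, parental, M, A, and only the last neighbours differed. Of the 27 tested genes within 5 Mb of Msmo1, 10 were called lower in A (median -0.44), with no test of their part.

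Nsdhl, Hsd17b7 and Ebp, a dehydrogenase, a ketoreductase and an isomerase of the later steps, rose in E1 and E2 and were not called in A or M. Nsdhl was at 2.74, 1.45 and 1.89 CPM in parental, 3.12, 6.74 and 5.80 in E1 and 5.52, 5.62 and 5.47 in E2, without overlap. The fold changes of the 3 genes were 0.93 to 1.36 in E1 and 1.02 to 1.43 in E2 on the log2 scale, with adjusted p of 0.00314 to 0.0415 and 0.00423 to 0.0226. The Nsdhl call in E1 was lost without E1 replicate 2 or 3, or parental replicate 2 (adjusted p up to 0.0784). The Ebp call in E1 was lost without any 1 parental library, E1 replicate 2 or 3 or E2 replicate 3 (adjusted p up to 0.234), and that in E2 without E2 replicate 2 or 3, or parental replicate 1 or 3 (up to 0.102). Dhcr7, the reductase of a last step of the pathway, rose in E2 (1.12 ± 0.18), A (0.93 ± 0.18) and M (0.94 ± 0.17), with adjusted p of 0.00112, 0.00276 and 0.00612. Among the synthesis enzymes, Dhcr7 alone was called higher in A, at 9.90, 7.70 and 9.81 CPM against 5.39, 3.90 and 5.04, with no overlap. Of the 89 tested genes within 5 Mb of Dhcr7, 21 were called higher in E2, 24 in A and 15 in M, with medians of 0.31, 0.35 and 0.33. The part of these in the Dhcr7 values was not tested.

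Tm7sf2, a sterol reductase, differed among the populations (adjusted p = 0.0398) and was lower in A than in E2 (-1.73 ± 0.43, adjusted p = 0.0221). Lbr, which has the same reductase activity and also anchors chromatin at the nuclear envelope, ranged from 55.9 to 98.6 CPM and was not called. Sc5d, the desaturase of the late steps, ranged from 22.4 to 45.7 CPM. It was called between M and A alone among the tests made (0.52 ± 0.19, adjusted p = 0.0475). That call was lost without any 1 A library and without parental replicate 3, E1 replicate 2 or 3, E2 replicate 3 or M replicate 2 (adjusted p up to 0.236).

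**Figure D2:**
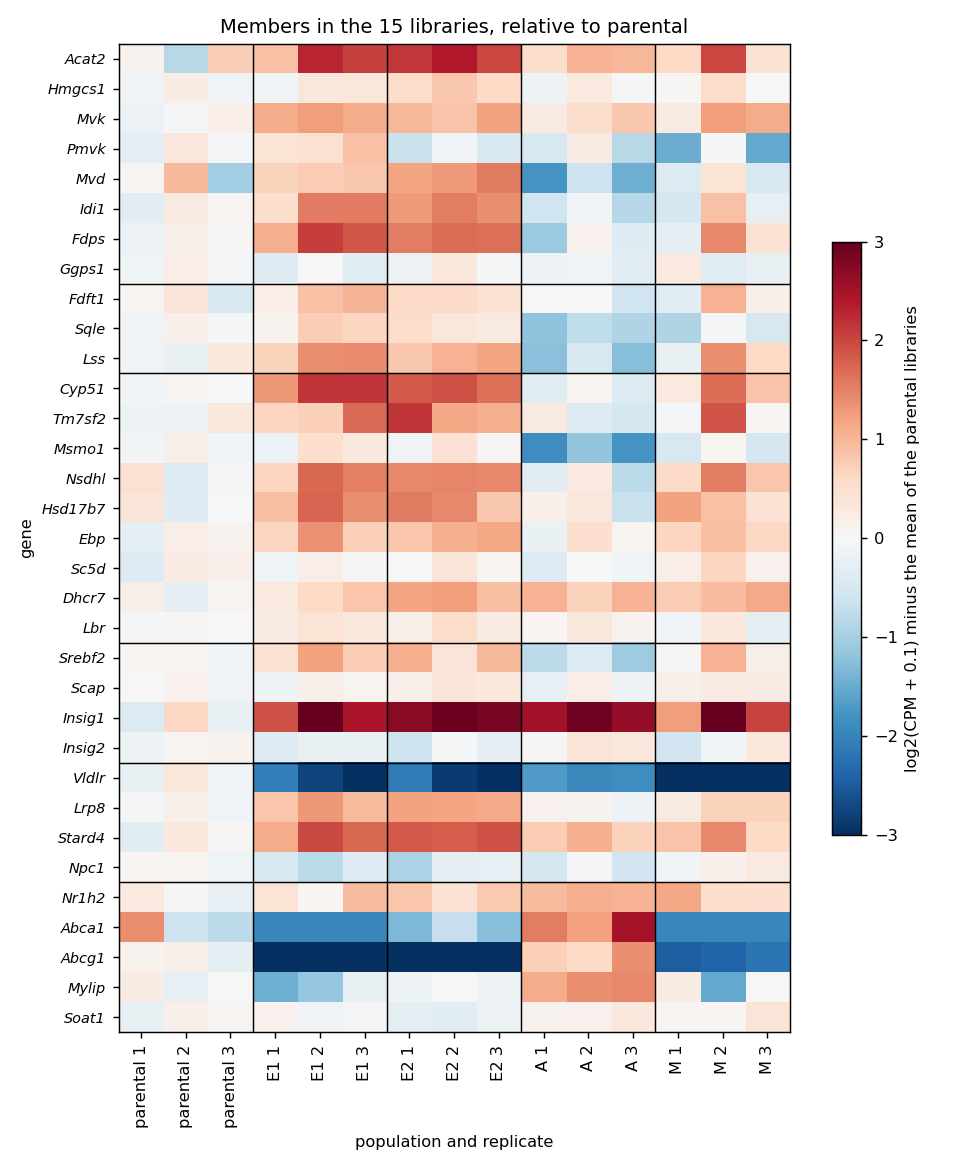
Log2(CPM + 0.1) of each member (rows, by role) in each library (columns), minus the mean of the 3 parental libraries, on a colour scale cut at -3 and 3. The enzyme block is red in E1 and E2, with E1 replicate 1 paler than replicates 2 and 3, and M replicate 2 is redder than the other M libraries; Abca1, Abcg1 and Mylip are red in A.

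The 20 synthesis enzymes were also summarised by the mean of their log2 CPM in each library. It was 2.86, 2.98 and 2.93 in parental, 3.40, 3.99 and 3.95 in clone E1, 3.82, 3.95 and 3.79 in clone E2, 2.54, 2.96 and 2.52 in clone A, and 2.93, 3.80 and 3.08 in clone M. E1 and E2 lay above every parental library. A overlapped parental through its replicate 2, and M spanned from the parental level to that of E2. Within populations, E1 replicate 1 lay below the other E1 libraries and M replicate 2 above the other M libraries.

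The levels of the enzymes also varied together between replicates. After the population means were removed, the correlation of an enzyme with the mean of the other enzymes over the 15 libraries ran from -0.14 (Ggps1) to 0.97 (Cyp51), with a median of 0.78. Over the 12692 other tested genes, the median correlation with the enzyme mean was 0.01, and 1.02% reached 0.78 or more. Among members that are no enzymes, Insig1 (0.85), Stard4 (0.84), Srebf2 (0.77), Lrp8 (0.62) and Scap (0.60) were the most like the enzymes, and Vldlr (-0.47) and Mylip (-0.40) the least. These values describe libraries that share depth and preparation. The share of the 6 most abundant genes was 66.6% in E1 replicate 1 against 62.6% and 63.4% in its fellows, and 61.4% in M replicate 2 against 67.3% and 68.3%. In A, the library with the highest enzyme level, replicate 2, had the highest share of the 3 (65.8% against 64.4% and 65.0%). Parental replicate 1 had the highest share (72.1%) and the lowest enzyme level (2.86) of its population. E2 replicate 3 had the lowest share (61.9%) and the lowest level (3.79) of its own. In a fit with this share as a covariate, members called higher in E1 numbered 7 in place of 13. The part of the share in the mean enzyme levels of the libraries was not tested.

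**Figure D3:**
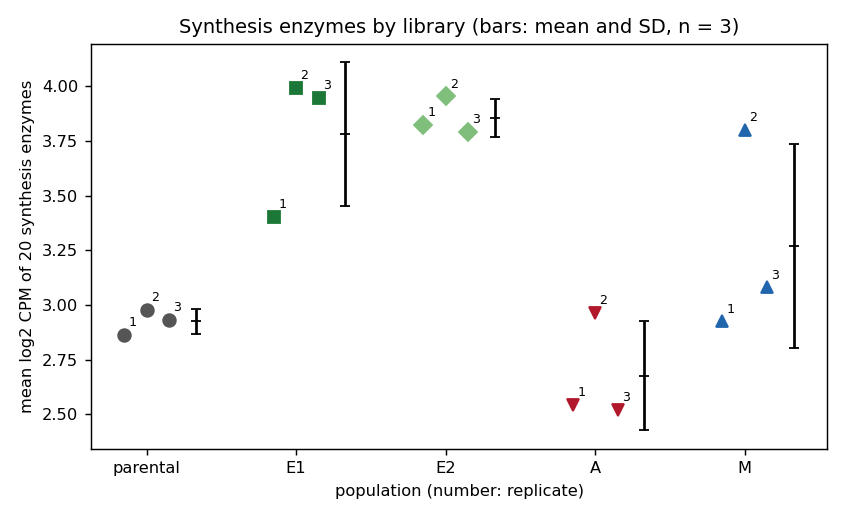
Mean log2 CPM of the 20 synthesis enzymes (y axis) in each library of the 5 populations (x axis, replicate number beside each point), with the mean and SD of 3 libraries as bars. The E1 and E2 libraries lie between 3.40 and 3.99, above the parental libraries at 2.86 to 2.98, and M replicate 2 at 3.80 stands apart from the other M libraries.

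Of the 4 genes of sterol sensing, Srebf2 rose in E1 and E2 and fell in A, whereas Insig1 rose in all 4 clones. Srebf2, which encodes the SREBP2 precursor, was at 31.4, 31.8 and 27.3 CPM in parental, 41.4, 69.4 and 51.1 in clone E1, 62.8, 39.5 and 59.6 in clone E2, 17.4, 22.8 and 14.4 in clone A and 30.8, 62.5 and 34.3 in clone M. All E1 and E2 libraries lay above and all A libraries below the parental ones. Its log2 fold change was 0.84 ± 0.23 in E1 (adjusted p = 0.0319), 0.84 ± 0.22 in E2 (adjusted p = 0.0283) and -0.73 ± 0.21 in A (adjusted p = 0.0374). Each of these 3 calls was lost when any 1 of the parental libraries was left out, and also without 1 of 2 libraries of the clone itself (E1 replicate 2 or 3, E2 replicate 1 or 3, A replicate 1 or 3), with adjusted p up to 0.153, 0.114 and 0.149. M exceeded A by 1.23 ± 0.37 (adjusted p = 0.00244), a call that every alternative kept. Srebf2 also lies on chromosome 15, and of the 123 tested genes within 5 Mb of it 40 were called lower in A and 24 in M, with medians of -0.39 and -0.30. The part of these in the Srebf2 values was not tested.

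Insig1, an anchor of SCAP and itself a known SREBP target, rose in all 4 clones. Its CPM was 6.41, 13.2 and 7.27 in parental, 32.1, 69.3 and 47.0 in clone E1, 56.1, 65.6 and 62.1 in clone E2, 49.3, 65.2 and 53.1 in clone A and 20.5, 73.7 and 34.9 in clone M. The lowest clone library, M replicate 1, was above the highest parental one. The fold changes in E1, E2, A and M were, in that order, 2.45 ± 0.45, 2.76 ± 0.33, 2.63 ± 0.34 and 2.26 ± 0.62, with adjusted p of 0.00452, 0.00196, 0.00119 and 0.00711. The M call was lost with both parental replicate 1 and E2 replicate 1 left out (adjusted p = 0.0533), and the calls in E1, E2 and A held under every alternative.

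In A against E1, the log2 fold change of Insig1 was 0.18 ± 0.34 (adjusted p = 0.803). In the same comparison it was -2.13 ± 0.33 for Cyp51 (adjusted p = 1.51e-05) and -1.57 ± 0.29 for Srebf2 (adjusted p = 0.000137). In A, mean CPM of Insig1 was thus 55.9 beside 8.96 in parental, while that of Cyp51 was 11.1 beside 12.9. Insig2, the second anchor, was not called against parental and was higher in A than in E1 (0.53 ± 0.12, adjusted p = 0.0328) and E2 (0.55 ± 0.20, adjusted p = 0.0359). Scap, the sterol sensor and escort, ranged from 24.3 to 37.5 CPM and was called in no test made.

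In uptake, the pair of lipoprotein receptors Vldlr and Lrp8 went apart. Vldlr, the very-low-density lipoprotein receptor, was at 37.0, 54.7 and 40.5 CPM in parental, 10.2, 6.23 and 4.64 in clone E1, 10.0, 5.83 and 2.98 in clone E2, 13.3, 11.4 and 11.96 in clone A and 4.63, 2.21 and 2.65 in clone M. Every clone library was below every parental one. Vldlr fell in all 4 clones, with log2 fold changes of -2.63 ± 0.37 (E1), -2.82 ± 0.53 (E2), -1.85 ± 0.18 (clone A) and -3.80 ± 0.36 (clone M), and adjusted p of 0.00019, 9.56e-05, 0.00098 and 9.04e-06. M was also lower than A (-1.95 ± 0.32, adjusted p = 0.00194). All 5 of these calls held under every alternative.

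Lrp8, the apolipoprotein E receptor 2, was at 18.1, 20.5 and 17.1 CPM in parental, 33.1, 45.9 and 36.0 in clone E1, 42.6, 42.2 and 40.8 in clone E2, 20.2, 19.99 and 16.4 in clone A and 22.3, 29.9 and 29.8 in clone M. E1, E2 and M lay above the parental libraries, and A overlapped them. It rose by 1.04 ± 0.16 in E1 (adjusted p = 0.000105), 1.17 ± 0.08 in E2 (adjusted p = 2.23e-05) and 0.56 ± 0.16 in M (adjusted p = 0.024) on the log2 scale. The value in A was 0.02 ± 0.12 (adjusted p = 0.939). The M call was lost without parental replicate 1 or 3 or M replicate 2 or 3 (adjusted p up to 0.0997).

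Stard4, a carrier that moves sterol between membranes, rose in all 4 clones. Its CPM was 4.09, 6.47 and 5.32 in parental, 11.3, 20.9 and 17.5 in clone E1, 18.7, 18.7 and 19.9 in clone E2, 8.90, 11.1 and 8.52 in clone A and 9.43, 14.4 and 7.87 in clone M, with every clone library above the parental ones. The fold changes were 1.63 ± 0.32, 1.84 ± 0.19, 0.83 ± 0.22 and 0.99 ± 0.32 in E1, E2, A and M, with adjusted p of 5.31e-05, 9.82e-06, 0.0104 and 0.0066. A was lower than E1 (-0.80 ± 0.29, adjusted p = 0.012) and lower than E2 (-1.01 ± 0.12, adjusted p = 0.00283). The A call was lost without parental replicate 1 or A replicate 2 (adjusted p up to 0.0718), and the M call without M replicate 2 (0.0683). Npc1, which lets cholesterol out of lysosomes, ranged from 5.36 to 12.5 CPM and was not called.

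**Figure D4:**
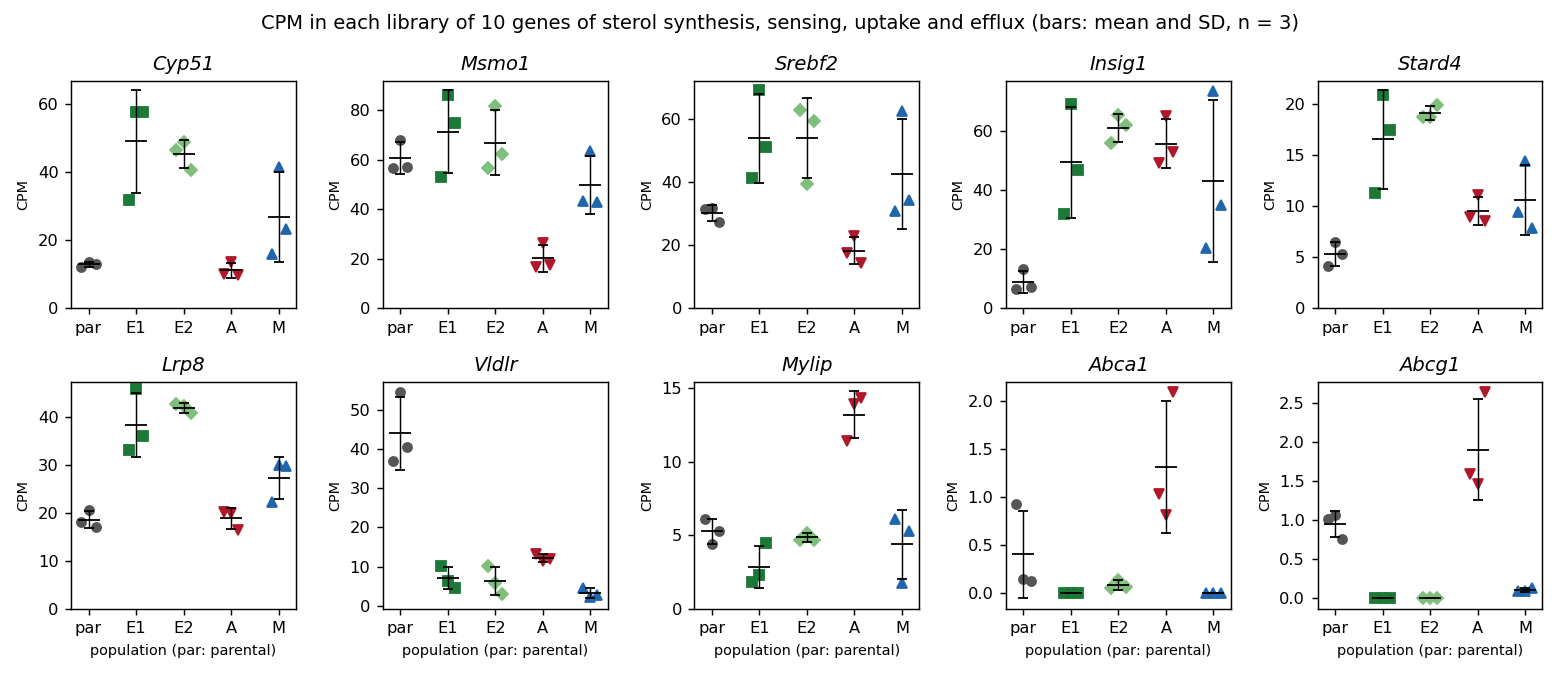
CPM (y axis) of 10 members in the 3 libraries of each population (x axis), with the mean and SD of 3 libraries as bars. Cyp51 and Lrp8 are high in E1 and E2, Msmo1 and Srebf2 are lowest in A, Insig1 and Stard4 are above parental in all 4 clones and Vldlr below, and Mylip, Abca1 and Abcg1 are highest in A.

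Of the 5 genes of LXR signalling, efflux and esterification, 2 were lower in E1, 1 higher and 1 lower in E2, 2 higher in A, and 1 higher and 2 lower in M. Over all genes, 7.35% were lower in E1, 9.14% higher and 8.8% lower in E2, and 15.1% higher in A. In M, 7.87% were higher and 6.28% lower. With 5 genes such counts are small, and the group was not tested as a whole. Abcg1, a transporter that moves cholesterol to lipoprotein particles, was at 1.02, 1.07 and 0.756 CPM in parental and 1.59, 1.47 and 2.64 in A, at 0.0881, 0.0980 and 0.130 in M, and had no counts in any library of E1 and E2. The counts behind these values are few, 22, 28 and 24 in parental, 48, 45 and 86 in A, and 2, 4 and 4 in M. With a floor of 3 counts over a population (0.0348 CPM in E1 and 0.0371 in E2), the parental mean was at least 27.3-fold higher than E1 and at least 25.6-fold higher than E2. The mean of A was at least 54.7-fold higher than E1 and at least 51.2-fold higher than E2. The adjusted p was 0.00044 for E1 and 0.000418 for E2 against parental, and 3.03e-05 and 6.61e-05 for A against each. M was below parental (-2.54 ± 0.18, adjusted p = 0.0201), a call lost without any 1 of the M libraries and without parental replicate 1 or 2. All A libraries were above all parental ones, and that difference was not called (0.95 ± 0.30, adjusted p = 0.352).

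Abca1, the exporter of cholesterol and phospholipid to apolipoproteins, had no counts in E1 and M. It was at 1.03, 0.815 and 2.09 CPM in A, 0.0520, 0.140 and 0.0608 in E2 and 0.929, 0.153 and 0.126 in parental, where replicate 1 held 20 of the 28 counts. The mean of A was at least 37.7-fold higher than E1 and at least 41.3-fold higher than M (adjusted p = 0.000951 and 0.00172). Abca1 passed the filter on low counts only through its A libraries, at 31, 25 and 68 counts. Its tests are therefore no independent support for a higher level in A. The parental mean was at least 11.6-fold higher than E1 and at least 12.7-fold higher than M. It rests on replicate 1, since replicates 2 and 3 were at 0.153 and 0.126 CPM beside floors of 0.0348 CPM (E1) and 0.0318 CPM (clone M). Both of these calls were lost without parental replicate 1 (adjusted p up to 0.0907), the E1 call also without E1 replicate 3 (0.0555). A and parental overlapped (adjusted p = 0.247). These bounds set a plain mean over a floor, so they take in the counting error of the population at 0 alone. The error of the higher population is left out, and without molecular identifiers several reads may stem from 1 molecule.

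Mylip, an LXR target that marks lipoprotein receptors for breakdown, rose in A. Its CPM was 6.08, 4.40 and 5.26 in parental, 1.82, 2.28 and 4.48 in clone E1, 4.68, 5.17 and 4.68 in clone E2, 11.4, 13.9 and 14.3 in clone A and 6.13, 1.72 and 5.28 in clone M. The A libraries were above all others, which lay between 1.72 and 6.13 CPM. The log2 fold change was 1.32 ± 0.17 against parental (adjusted p = 0.00447), 2.18 ± 0.40 against E1 (adjusted p = 4.12e-05) and 1.43 ± 0.11 against E2 (adjusted p = 0.0035), and -1.59 ± 0.58 for M against A (adjusted p = 0.00194).

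Nr1h2, which encodes the receptor LXR beta, rose in E2 (0.68 ± 0.21, adjusted p = 0.0456), A (1.02 ± 0.17, adjusted p = 0.0016) and M (0.75 ± 0.27, adjusted p = 0.0321). The E2 call was lost under 13 of the 24 alternatives and the A call under none. The M call was lost without parental replicate 2 or 3 or M replicate 1 (adjusted p up to 0.184). Soat1, which esterifies cholesterol for storage, ranged from 65.4 to 107 CPM and was higher in A than in E2 (0.44 ± 0.09, adjusted p = 0.027). Of the 5 fibroblast markers, 3 were at 0 in every A library and Pdgfra alone was abundant enough to be tested. Their sum was 21.1 to 33.8 CPM in A, 6.85 to 7.49 in parental and 3.15 to 12.1 in the other clones, and its part in the values of A was not tested. The 8 mitochondrially encoded genes summed to 4234 to 4817 CPM in A, 3808 to 4485 in parental and 2370 to 3622 in E1, E2 and M, likewise with no test of their part.

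The clones were then compared with each other. Between E2 and E1, the members called numbered 0 in each direction by edgeR and by DESeq2, where 0.173% of all genes were higher and 0.0629% lower. At an unadjusted p under 0.05, 4 members were higher in E2 and 1 lower. The median difference of the members was 0.09 on the log2 scale.

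M exceeded A in 8 members and was lower in 4, where 9.2% and 8.55% of all genes were called. The lower count is near the share over all genes. The higher genes were Lss, Cyp51, Msmo1, Nsdhl, Hsd17b7, Sc5d, Srebf2 and Lrp8, and the lower ones were Vldlr, Abca1, Abcg1 and Mylip. Lss had the largest difference of the enzymes, 1.72 ± 0.53 (adjusted p = 0.000655). Without M replicate 2 the count of higher members was 4, without A replicate 3 it was 4 and without A replicate 1 it was 5. Nsdhl was not called without A replicate 1 or 3 or M replicate 2, nor Lrp8 without A replicate 3 or M replicate 2 or 3, and Hsd17b7 lost its call when 1 library was left out in 6 of 15 cases (adjusted p up to 0.228). Against E1, M had 2 members lower and 0 higher, where 1.46% and 2.43% of all genes were. Against E2 it had 4 lower and 0 higher, where 1.57% and 1.93% of all genes were. The lower members were Pmvk and Sqle in the first and Idi1, Sqle, Lrp8 and Stard4 in the second. Sqle lies in the chromosome 15 stretch whose genes were low in M against parental, and the part of that stretch was not tested.

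The mean of E1 and E2 exceeded that of A and M in 13 members and was lower in 4, where 11.5% and 12.2% of all genes were called. The higher members were 10 of the 20 enzymes (Acat2, Mvd, Idi1, Fdps, Sqle, Lss, Cyp51, Msmo1, Nsdhl and Hsd17b7) with Srebf2, Lrp8 and Stard4. The 37 tested genes within 5 Mb of Sqle had a median of 1.00 here, with 24 called higher, beside 1.14 for Sqle. Of the 123 tested genes within 5 Mb of Srebf2, 33 were called higher (median 0.21, beside 0.95 for Srebf2). The part of these chromosome 15 stretches was not tested. Differences among the enzymes called ran from 0.91 for Hsd17b7 to 1.73 for Mvd on the log2 scale. The lower members were Insig2, Abcg1, Mylip and Soat1, a count near the share called lower over all genes. All 6 libraries of E1 and E2 lay above all 6 of A and M for Mvd, Sqle and Lrp8, and below them for Abcg1. The share of all tested genes that lay apart in this way was not counted, so no weight is put on these members. This contrast of means joins clones that differ from each other in the enzymes. A had 13 members lower and 4 higher than E1 (14.6% and 15% of all genes), and 15 lower and 5 higher than E2 (11% and 11.4% of all genes). The counts higher in A are near the shares over all genes. The count of 4 members lower in E1 and E2 was 2 without E1 replicate 2 or 3, A replicate 3 or M replicate 3. With each of the 15 libraries left out in turn, the Acat2 call was lost in 11 cases (adjusted p up to 0.1), the Insig2 call in 8 (up to 0.176) and the Soat1 call in 5 (up to 0.0972).

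Of 16 calls in E1 against parental, 8 held under every alternative, as did 10 of 18 in E2, 7 of 11 in A and 2 of 10 in M. In E1 the higher count of 13 was 7 without parental replicate 1 or 2 or E1 replicate 3, 6 without E1 replicate 2, and 7 with the share of the 6 most abundant genes as a covariate. In A the lower count of 6 was 3 without A replicate 1 or 3. In M the higher count of 7 was 3 without M replicate 2 and 4 without parental replicate 3, and the lower count of 3 was 1 without parental replicate 1. Cyp51, Hsd17b7, Insig1, Lrp8 and Stard4 were called in E1 and in E2 under every alternative, as were Vldlr and Abcg1 in the other direction.

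Further genes of the pathway were read from lists made by function, and these lists were chosen with earlier results of these data known. Of 9 genes of SREBP cleavage and sterol-regulated degradation, 2 were lower in E1 and 2 in E2, while 3 were lower in A and 3 in M, and over all genes 7.35%, 8.8%, 14.9% and 6.28% were. Erlin1, which helps mark sterol-sensing proteins for degradation, fell in all 4 clones, from 101, 119 and 106 CPM in parental to 24.8 to 54.9 CPM in the clones. Its log2 fold changes were -1.51 ± 0.22 (E1), -1.58 ± 0.09 (E2), -2.10 ± 0.08 (clone A) and -1.22 ± 0.27 (clone M), with adjusted p of at most 3.77e-05. Rnf139, a sterol-linked ubiquitin ligase of the endoplasmic reticulum, also fell in all 4 clones, with log2 fold changes of -0.79 ± 0.17 (E1), -0.75 ± 0.16 (E2), -2.15 ± 0.15 (clone A) and -2.19 ± 0.17 (clone M). It lies on chromosome 15 (58889229 to 58902390, GRCm38), 0.427 Mb from Sqle, in the stretch whose genes were low in A and M. Nploc4, a cofactor that extracts marked proteins from membranes, was lower in A (-0.57 ± 0.14, adjusted p = 0.00469).

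Of 12 genes that use isoprenoids, 1 was higher in E1, 1 higher and 1 lower in E2, 1 higher and 1 lower in A, and 1 lower in M. Such counts are near the shares called over all genes given above. Dhdds, a subunit of the dolichol synthase, rose in E1 (0.75 ± 0.21), E2 (0.72 ± 0.12) and A (0.84 ± 0.16). Fnta, the shared subunit of the protein prenyltransferases, was lower in E2 (-0.53 ± 0.15) and A (-0.69 ± 0.15), and Rabggtb, a subunit of the Rab prenyltransferase, was lower in M (-0.49 ± 0.20, adjusted p = 0.0497).

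Of 13 genes of sterol transfer and storage, 1 was lower in E1, 2 were higher and 2 lower in A, and 1 was higher and 1 lower in M, again near the shares called over all genes. Tmem97, a sterol-responsive membrane protein that binds Npc1, was at 3.63 to 6.62 CPM in A against 14.2 to 19.6 in parental (-1.75 ± 0.30, adjusted p = 1.57e-06). Nceh1, a hydrolase of cholesteryl esters, was lower in E1 (-0.73 ± 0.10, adjusted p = 0.00847). Of 6 oxysterol enzymes, 2 were abundant enough to be tested, and their log2 fold changes against parental lay between -1.12 and 0.73, without a call.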

How the data were processed

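Raw counts per gene of 15 libraries, made by the authors, were used as deposited. The submitters' processing notes name HISAT2, featureCounts and DESeq2 with GRCm38 and mm10, and tool versions and the strand setting are not given in the sources used here. The authors' transformed tables were not used here. Identifiers were named with a RefSeq table (25267 of 27179), then GENCODE links (26). Totals of 20143111 to 36831801 counts set the counting precision.

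Genes were filtered with filterByExpr (minimum count 10, minimum total 15), scaled by TMM, and fitted with edgeR 4.0.16 (R 4.3.3, robust quasi-likelihood, population as the only term, 15 libraries, prior count 2). Benjamini-Hochberg adjustment ran over all 12712 tested genes of a comparison, and a gene was called at adjusted p under 0.05. The SE comes from the replicates' log2 CPM. The fit was tested on simulated data. Near copies were matched with blastn 2.17.0 (at least 95% identity over 200 bases).

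All 33 members are described. From each of 4 further pathway lists, up to 3 genes with the smallest adjusted p for any difference are named, and 1 gene so chosen is not reported here. Members and lists were chosen with earlier results of these data known. Alternatives were RLE factors, 2 other filters, DESeq2, a replicate block, libraries or abundant genes left out, fits of the compared populations alone and, chosen after seeing the data, the abundant genes' share as a covariate.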

Additional observations from a re-analysis of the deposited data

Results flagged for a closer look

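Some members were called in 1 direction against parental in both E1 and E2, or in both A and M, and also differed between the mean of E1 and E2 and the mean of A and M. They are given with that difference on the log2 scale (edgeR, adjusted over all tested genes). The contrast is one of means and does not show that A and M each differ from E1 and E2. Among these members, M by itself was called apart from E2 for Idi1, Lrp8 and Stard4 only, and from E1 for none. Cyp51, Lrp8 and Stard4 were also called higher in M against parental. The enzymes were Acat2 at 0.98 ± 0.35 (SE, adjusted p = 0.0435, a call lost under 12 of 24 alternatives, 11 of which left out 1 library), Idi1 at 1.4996 ± 0.30 (adjusted p = 3.38e-05), Fdps at 1.51 ± 0.35 (adjusted p = 0.00231), Lss at 1.22 ± 0.30 (adjusted p = 0.000299), Cyp51 at 1.44 ± 0.26 (adjusted p = 3.11e-05), Nsdhl at 1.00 ± 0.27 (adjusted p = 0.00434) and Hsd17b7 at 0.91 ± 0.26 (adjusted p = 0.00222). Srebf2 differed by 0.95 ± 0.24 (adjusted p = 0.000704), Lrp8 by 0.82 ± 0.11 (adjusted p = 9.79e-06) and Stard4 by 0.82 ± 0.19 (adjusted p = 0.00066). Abcg1 had a fitted value of -3.09 (adjusted p = 4.67e-05), which depends on the prior count, since E1 and E2 had 0 counts.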

How the results depend on the processing

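No direction reversed. Of the 84 calls of members in the 7 comparisons, 48 held under all 24 alternatives and 1, Abca1 in M against A, under the 23 that tested it, 35 were lost under at least 1, and 26 calls were gained under at least 1. Members called higher in E1 against parental numbered 13, and 7 with both parental replicate 1 and E2 replicate 1 left out and 7 with the share of the 6 most abundant genes as a covariate. With those 2 libraries left out, E2 had 9 higher in place of 16. M had 7 higher, 13 with no filter on low counts and 4 in a fit of the compared populations alone. With 1 library left out at a time, counts ran from 6 to 14 (E1 higher), 3 to 6 (A lower), 3 to 8 (M higher), 1 to 4 (M lower), 4 to 10 (M above A) and 2 to 4 (E1 and E2 below A and M). Members that differed among the 5 populations numbered 22 to 28 in place of 25. The cause of these shifts was not tested. The count of members with a sterol response element motif was 1 under both other settings of the search.

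The replicate numbers share no stated batch. After removal of population means, same-numbered libraries correlated at -0.06 to 0.21 (median 0.05, 30 pairs, 4 over 0.1), although 14 of 15 libraries were closest to a library of their own number. With the replicate block, 30 members in place of 25 differed among populations, and E1 had 14 higher, E2 17 and M 8. Depth limits Abca1 and Abcg1, whose populations held 0 to 179 counts.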
